A study of Mus musculus with 4 samples.

Results

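A set of 10 genes of inhibitory signalling through glycine and GABA was lower in lumbar cord RNA of G93A mice than of WT mice, and among them the receptor subunit gene Glra1 and the transporter gene Slc6a5 were lowest relative to WT. With earlier results of these data known, the 10 genes were picked by name from the 18674 gene names of the expression table. It comprises the glycine transporters Slc6a5 and Slc6a9, the vesicular transporter Slc32a1, the GABA synthesising enzymes Gad1 and Gad2, the glycine receptor subunits Glra1, Glra2, Glra3 and Glrb, and the scaffold Gphn. All 10 had a row in the table and a mean of at least 1 RPKM.

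The study asked whether spermidine (SD), a polyamine, changes gene expression in a mouse model of amyotrophic lateral sclerosis. G93A mice carry a mutant human SOD1 transgene (H1 high expressers, male carriers bred with B6/SJLF1 females), and WT mice do not. The treatment studies used only males. RNA-seq was done on polyA RNA in 4 libraries, 1 per genotype with vehicle and 1 per genotype with SD, from mice killed at 100 days of age after 30 days of injections given 4 times a week. The SD dose was 5 mg/kg by intraperitoneal injection, and the vehicle is named PBS in one section of the methods and saline in another. The same methods give 30 and 70 days of age as starting points of dosing, and only the later one fits 30 days of injections that end at 100 days. The weekly frequency is that of the labels of these samples, and a higher one is stated for mice of the behavioural tests that were dosed from the later age. The number of animals behind a library is not stated. As 1 library per condition gives no replicate, no test of the conditions was made, no p-value is given, and differences below describe these 4 libraries. Libraries are always listed in the order WT vehicle, WT + SD, G93A vehicle, G93A + SD.

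Levels are in RPKM (a read count divided by transcript length and by the size of the library), so that genes can be compared within a library. Depth was estimated at 36800000, 38300000, 38000000 and 38600000 fragments from the step between low values. Of the markers looked up for neurons, motor neurons, astrocytes, microglia and oligodendrocytes, none with a row was at 0 in any library.

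Inhibitory interneurons of the spinal cord release glycine, GABA or both from the same vesicles. Glycine is taken up into the terminal by GlyT2 (Slc6a5), GABA is made from glutamate by GAD67 (Gad1) and GAD65 (Gad2), and both are loaded into vesicles by VIAAT (Slc32a1). On the receiving cell, motor neurons included, glycine opens a chloride channel built of alpha subunits (Glra1, Glra2, Glra3) and the beta subunit (Glrb), which gephyrin (Gphn) anchors at the synapse.

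The whole set shifted in 1 direction between genotypes. For each of the 10 genes, both G93A libraries lay below both WT libraries, an order found for 28% of all gene names and for 32.6% of the 12987 names with a mean of at least 1 RPKM. Here the SD libraries served as the other library of each genotype, and since their treatment differs they are not replicates. The 10 genes were chosen with earlier results of these data known, so that their shared order is not an independent finding. The median log2 fold change (pseudocount 0.1 RPKM, used for every log2 value here) was -0.50 for G93A vehicle against WT vehicle and -0.44 for G93A + SD against WT + SD, where the medians over all names were 0.05 and 0.05. At a threshold of 1.5-fold, 2 of the 10 genes (Slc6a5 and Glra1) were lower with G93A than with WT under vehicle, as were 10.3% of all names and 4.68% of names with a mean of at least 1 RPKM. Under median-ratio scaling 5 of the 10 were lower there, with Slc32a1, Glra2 and Glrb added. The 10.3% and 4.68% are without scaling, which also shifts the other names, and shares under scaling were not taken. In G93A + SD against WT + SD, 4 of the 10 (Slc6a5, Slc32a1, Glra1 and Glrb) were lower, against 12.5% of all names and 8.12% of names with a mean of at least 1 RPKM. None of the 10 was higher at that threshold in either genotype comparison, where 20.3% and 23.2% of all names were. Tissue RNA cannot tell fewer cells of a type from less RNA per cell.

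**Figure D1:**
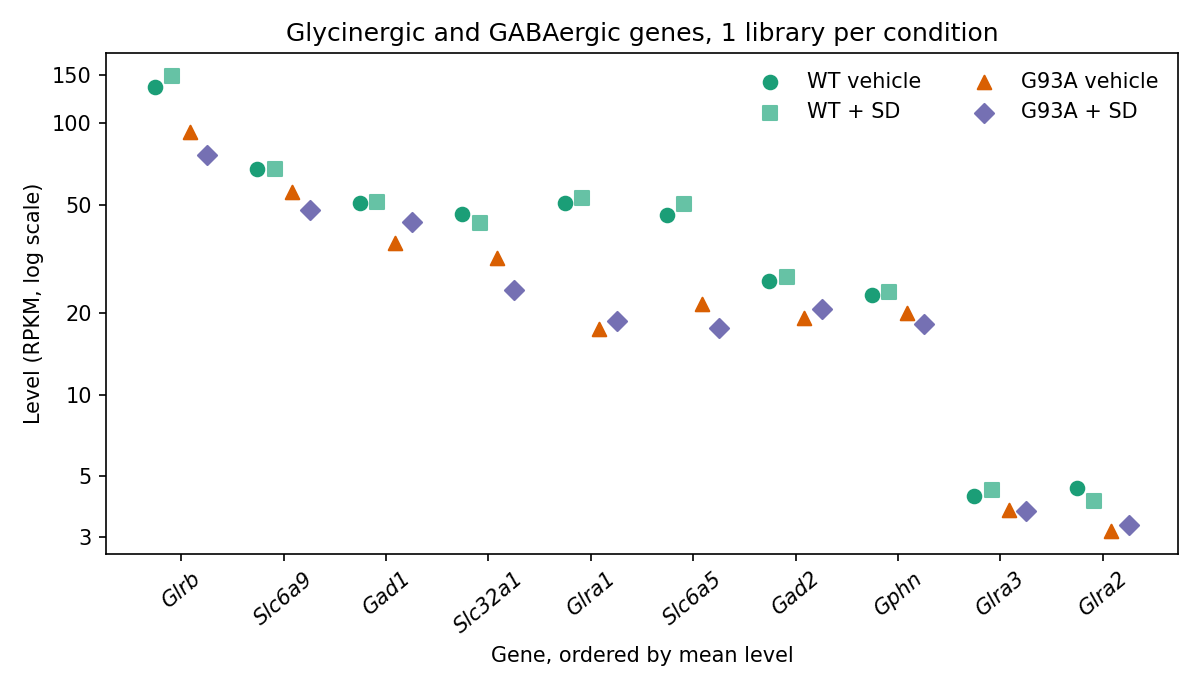
Level of each of the 10 genes (vertical axis, RPKM, log scale) in each library, with genes along the horizontal axis ordered by mean level and 1 point per library, so that no error bar can be drawn. The G93A points lie below the WT points for every gene, and the gap is widest for Glra1, with 50.8 and 52.9 RPKM in WT and 17.4 and 18.6 RPKM in G93A.

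Among the genes for glycine receptors, Glra1 encodes the alpha1 subunit, the main adult form in the spinal cord, and lies at chr11:55514238-55608198 on the minus strand of GRCm38, in 9 exons. It had 50.8, 52.9, 17.4 and 18.6 RPKM in the 4 libraries. The WT libraries were alike, both G93A libraries were far below them, and the genotypes did not overlap. In G93A vehicle its level was 34.2% of that in WT vehicle, a log2 fold change of -1.54, and in G93A + SD it was 35.2% of that in WT + SD, a log2 fold change of -1.50. By size of fall it ranked 6 among the 8847 names with a mean of at least 5 RPKM in the vehicle libraries and 14 in the SD libraries, and by the smaller of its falls in both comparisons it ranked 2. An estimated 4474, 4834, 1578 and 1715 fragments stood behind these values. A noncoding gene on the opposite strand, Gm12236, overlaps 141 of the 2390 bases of the transcript.

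The other alpha subunits were scarce and fell less. Glra2, which encodes the subunit prevalent before birth, lies at chrX:165129017-165327393 on the minus strand and had 4.54, 4.07, 3.14 and 3.32 RPKM. Glra3, whose product is found in the superficial dorsal horn, lies at chr8:55940460-56130070 on the plus strand and had 4.24, 4.45, 3.76 and 3.74 RPKM. Both genes were lower in the G93A libraries without overlap, but neither reached 1.5-fold, with log2 fold changes of -0.52 and -0.29 for Glra2 and of -0.17 and -0.24 for Glra3. Glra2 rests on the fewest fragments of the set, an estimated 376 to 526 per library.

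The makeup of the alpha transcripts therefore differed between genotypes. Glra1 made up 85.3, 86.1, 71.6 and 72.5% of the summed RPKM of the 3 alpha genes in the 4 libraries. The share of Glra2 was 7.61, 6.63, 13.0 and 12.9%, and that of Glra3 was 7.11, 7.25, 15.5 and 14.6%. The shares of Glra2 and Glra3 were thus higher in both G93A libraries although their own levels were lower there, because the summed level fell from 59.6 and 61.4 RPKM in the WT libraries to 24.3 and 25.6 RPKM in the G93A libraries.

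Whether reads could pass between these related genes was examined on their coding sequences. Glra1 has 1295 windows of 53 bases, the stated read length, in its coding sequence of 1347 bases, and none was identical to a window of Glra2, Glra3, Glra4 or Glrb. The nearest windows differed at 3 bases for Glra2 and for Glra3, at 2 for Glra4 and at 9 for Glrb, and the median over windows was 13, 12, 11 and 24 mismatches in that order. The window of Glra1 with the fewest mismatches to any of these genes, which was to Glra4, lies in the part that encodes the first membrane-spanning segment. It is printed below from GENCODE M21, with the nearest window of each gene, to show how far the alpha genes can be told apart by a read; it begins at coding base 763 of Glra1, and capitals mark bases that differ from Glra1, at 7 positions in Glra2, 7 in Glra3, 2 in Glra4 and 17 in Glrb.
Glra1: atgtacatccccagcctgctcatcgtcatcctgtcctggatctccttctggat
Glra2: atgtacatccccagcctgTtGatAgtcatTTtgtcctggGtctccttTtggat
Glra3: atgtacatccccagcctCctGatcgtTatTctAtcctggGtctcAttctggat
Glra4: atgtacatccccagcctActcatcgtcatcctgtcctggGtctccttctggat
Glrb: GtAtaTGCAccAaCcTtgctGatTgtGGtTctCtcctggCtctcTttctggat

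Glrb, which encodes the beta subunit that carries the gephyrin binding site, had the highest level of the 10 genes in every library, with 135, 149, 92.5 and 76.0 RPKM. It lies at chr3:80843599-80913660 on the minus strand. Both WT libraries were above both G93A libraries, with WT + SD highest and G93A + SD lowest. The log2 fold change was -0.55 for G93A vehicle against WT vehicle, short of 1.5-fold, and -0.97 for G93A + SD against WT + SD, where the level was 51.0% of that in WT + SD. The ratio of Glra1 to Glrb was 0.377, 0.355, 0.188 and 0.244, so that the alpha1 transcript was also lower relative to its beta partner in G93A.

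Gphn, at chr12:78226379-78684772 on the plus strand, encodes the scaffold that clusters glycine and GABA-A receptors. It had 23.3, 23.8, 19.9 and 18.2 RPKM as the mean of its 2 transcript rows. The G93A libraries were lower without overlap, but the differences were small, with log2 fold changes of -0.23 and -0.39. The noncoding gene Gm48226 on the opposite strand overlaps 147 of the 3570 bases of its longer transcript. The ratio of Glrb to Gphn was 5.80, 6.26, 4.65 and 4.18.

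Of the transporters, Slc6a5 encodes GlyT2, which refills the terminals of glycinergic neurons and serves as their marker. The gene lies at chr7:49910146-49963856 on the plus strand, and it had 45.9, 50.4, 21.5 and 17.5 RPKM as the mean of 2 rows of nearly equal value. WT + SD was the highest library and G93A + SD the lowest, with no overlap of genotypes. Its level in G93A vehicle was 46.8% of that in WT vehicle (log2 fold change -1.09), and in G93A + SD it was 34.8% of that in WT + SD (log2 fold change -1.52). It ranked 20 and 13 by fall among the 8847 names with a mean of at least 5 RPKM. No exon of another gene overlaps it, and none of its 2415 windows of 53 bases was shared with another gene.

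Slc32a1 encodes VIAAT, the vesicular carrier used by glycinergic and GABAergic neurons alike, and lies at chr2:158610767-158615748 on the plus strand. It had 46.2, 42.7, 31.8 and 24.3 RPKM. Again both WT libraries stood above both G93A libraries, and G93A + SD was the lowest. The log2 fold change was -0.54 in the vehicle libraries and -0.81 in the SD libraries, and only the latter passed 1.5-fold. The antisense gene Gm14205 overlaps 697 of its 2797 bases, and no source states that strand was used in counting, so that reads of the pair cannot be told apart there. The ratio of Slc6a5 to Slc32a1 was 0.993, 1.18, 0.676 and 0.723, lower in both G93A libraries than in both WT libraries.

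The promoters of Slc6a5 and Slc32a1 are shown because the transcripts of both genes were lower in G93A and mark inhibitory neurons. Each runs from upstream of the RefSeq start on GRCm38.p6 into the first bases of the transcript, and capitals mark CANNTG, the E-box letters, which read the same on either strand. The gene positions given above are from GENCODE, in which Slc6a5 begins at base 49910146, so that most of its window lies inside that gene. Slc6a5 has another RefSeq promoter, chr7:49911450-49911749, with 2 matches and a GC content of 44.3%, which is not printed. The first window shown is chr7:49910049-49910348, on the plus strand, with 1 match and a GC content of 49.7%, and the other is chr2:158610508-158610807, also on the plus strand, with 2 matches and a GC content of 63.3%.
Slc6a5: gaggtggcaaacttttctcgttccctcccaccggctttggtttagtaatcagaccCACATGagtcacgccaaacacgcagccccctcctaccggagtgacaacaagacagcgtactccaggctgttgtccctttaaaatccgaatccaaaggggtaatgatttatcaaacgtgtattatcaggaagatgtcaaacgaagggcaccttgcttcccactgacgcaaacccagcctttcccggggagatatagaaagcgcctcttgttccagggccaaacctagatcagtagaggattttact
Slc32a1: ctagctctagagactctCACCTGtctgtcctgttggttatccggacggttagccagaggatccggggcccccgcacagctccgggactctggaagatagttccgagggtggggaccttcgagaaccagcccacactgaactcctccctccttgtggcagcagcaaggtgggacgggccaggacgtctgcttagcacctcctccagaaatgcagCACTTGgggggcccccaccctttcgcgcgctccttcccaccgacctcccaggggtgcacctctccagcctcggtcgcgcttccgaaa
RefSeq promoters were matched for 9 of the 10 genes, 12 promoters in all, and 8 of the 12 hold CANNTG, as do 72.3% of the 32851 promoters in the table. A match is a description of these letters and not of a binding site.

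Slc6a9 encodes GlyT1, the glycine transporter found mainly on astrocytes, and lies at chr4:117834506-117875198 on the plus strand. It had 67.4, 67.4, 55.8 and 47.9 RPKM, the second highest level of the set in every library. The WT libraries were close to each other and the G93A libraries lower, with G93A + SD lowest. The log2 fold changes of -0.27 and -0.49 did not reach 1.5-fold. Of the 10 genes it has the largest overlap with other genes, since genes on the opposite strand (B4galt2, Ccdc24 and Gm17114) overlap 1555 of its 3479 bases. The ratio of Slc6a5 to Slc6a9 was 0.681, 0.749, 0.385 and 0.366, so that the neuronal transporter fell further than the glial one.

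**Figure D2:**
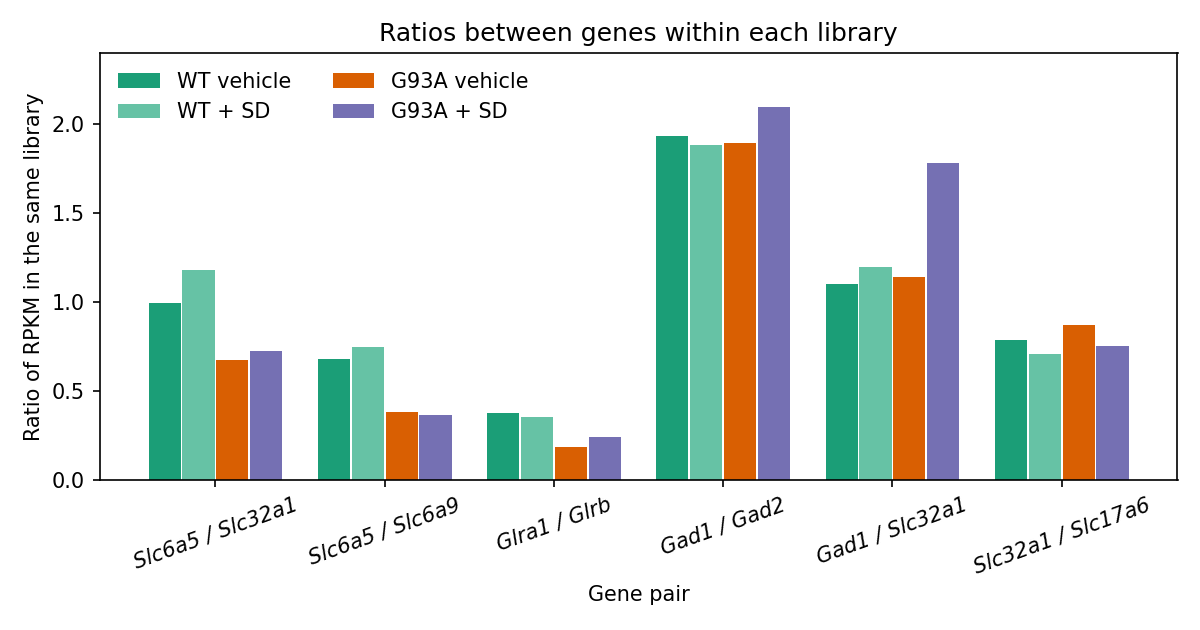
Ratio of the RPKM of a pair of genes within each library (vertical axis, starting at 0), with gene pairs along the horizontal axis and 1 bar per library, without error bars because each condition has 1 library. The Slc6a5 ratios and the ratio of Glra1 to Glrb are lower in both G93A libraries, while the ratio of Gad1 to Slc32a1 stands out in G93A + SD at 1.78.

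The genes for GABA synthesis were lower in G93A by less than Glra1 and Slc6a5, and neither reached 1.5-fold in a genotype comparison. Gad1 encodes GAD67, which supplies most GABA in the cell body and axon, and lies at chr2:70553072-70602014 on the plus strand. It had 50.8, 51.0, 36.2 and 43.2 RPKM. The WT libraries were close to each other, G93A vehicle was the lowest and G93A + SD lay between. The log2 fold change between genotypes was -0.49 with vehicle and -0.24 with SD. Of its 3303 windows of 53 bases, 99 are shared with the pseudogene Gad1-ps.

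Gad2 encodes GAD65, the form at the nerve terminal, and lies at chr2:22622205-22693874 on the plus strand. It had 26.3, 27.1, 19.1 and 20.6 RPKM, with both G93A libraries below both WT libraries. The log2 fold changes were -0.46 and -0.39. The ratio of Gad1 to Gad2 was 1.93, 1.88, 1.90 and 2.10. The ratio of Slc6a5 to Gad1, a comparison of the glycinergic with the GABAergic marker, was 0.903, 0.989, 0.593 and 0.406, lower in both G93A libraries. The ratio of Gad1 to Slc32a1 was 1.10, 1.19 and 1.14 in the first 3 libraries and 1.78 in G93A + SD, where Gad1 was above and Slc32a1 below its level in G93A vehicle.

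**Figure D3:**
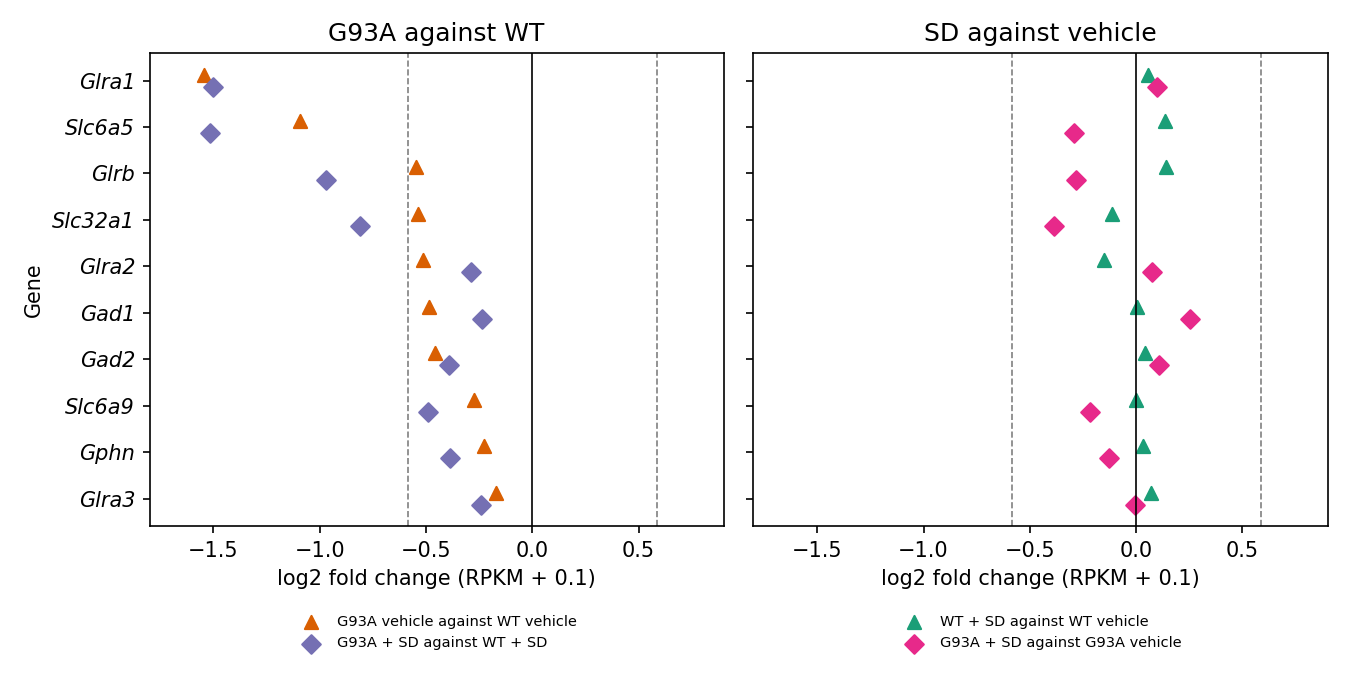
Log2 fold change (horizontal axis, RPKM + 0.1) of each of the 10 genes between genotypes in the first panel and between SD and vehicle in the other panel, with 1 point per comparison, no error bars because each condition has 1 library, and dashed lines at 1.5-fold. Every genotype point is below 0, down to -1.54 for Glra1, and no SD point reaches the dashed lines.

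The order of levels also differed. In WT vehicle it ran Glrb, Slc6a9, Glra1, Gad1, Slc32a1, Slc6a5, Gad2, Gphn, Glra2 and Glra3 from high to low, and WT + SD differed only in that Slc6a5 stood above Slc32a1 and Glra3 above Glra2. Glra1 held place 3 in both WT libraries, place 8 in G93A vehicle and place 6 in G93A + SD. Slc6a5 held place 6 in WT vehicle, 5 in WT + SD and in G93A vehicle, and 8 in G93A + SD. Several neighbours lie within 1 RPKM of each other, such as Glra1 and Gad1 in WT vehicle, and with 1 library per condition their order has no measure of spread.

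SD moved none of the 10 genes by 1.5-fold in either genotype. In WT + SD against WT vehicle, 8.55% of all names were lower and 7.18% higher at this threshold, and in G93A + SD against G93A vehicle 7.31% were lower and 8.71% higher. The median log2 fold change of the 10 genes was 0.04 in WT and -0.07 in G93A. In WT, 3 genes were lower and 7 higher with SD, and the values ran from -0.15 for Glra2 to 0.14 for Glrb. In G93A, 6 were lower and 4 higher, from -0.39 for Slc32a1 to 0.25 for Gad1. With SD, the G93A level was 76.4% of that with vehicle for Slc32a1, 81.6% for Slc6a5, 82.3% for Glrb and 85.9% for Slc6a9, while it was 107% for Glra1, 108% for Gad2 and 119% for Gad1. No gene of the set returned to the range of the WT libraries in G93A + SD. The genotype and SD comparisons share libraries, so that they are not independent of each other.

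The genes with the profile most like that of Slc6a5 over the 4 libraries, by Euclidean distance between centred log2 values among 8846 other names with a mean of at least 5 RPKM, were Chrm2 (distance 0.0847), which encodes a muscarinic acetylcholine receptor, Caln1 (0.0977), which encodes a calcium binding protein, and Stmn1 (0.10), which encodes a microtubule regulator. Chrm2 had 17.3, 17.5, 7.69 and 6.38 RPKM. Glra1 ranked 30 in likeness to Slc6a5, at a distance of 0.355. For Gad1 the nearest names were Rps6ka5 (0.0550), Smarcal1 (0.0564) and Btf3l4 (0.0612), and Gad2 ranked 34 (0.124). With only 4 libraries, distances describe likeness in these libraries alone.

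GABA-A receptors are chloride channels assembled from subunits of a large family. Of their 19 genes with a row, 7 were lower and 2 higher at 1.5-fold in G93A vehicle against WT vehicle, and 8 were lower and 4 higher in G93A + SD against WT + SD, with medians of -0.21 and -0.36 on the log2 scale. Of all names, 10.3% were lower and 20.3% higher with vehicle, and 12.5% and 23.2% with SD. With a pseudocount of 1 RPKM, 4 in place of 9 of the 19 genes were called with vehicle and 7 in place of 12 with SD, and the medians were -0.09 and -0.12. Among the 12 with a mean of at least 1 RPKM, 4 were lower and 1 higher with vehicle, and 5 were lower and 3 higher with SD. Of all names with such a mean, 4.68% were lower with vehicle and 8.12% with SD. Both G93A libraries lay below both WT libraries for 11 of the 19 genes and above them for 4, orders found for 28% and 39.7% of all names. Gabrb2, for a beta subunit, had 11.98, 12.7, 7.33 and 6.43 RPKM and was lower in both comparisons. Gabrq, a minor subunit gene, had 2.24, 2.39, 1.49 and 1.60 RPKM. Its falls of 1.505-fold with vehicle and 1.494-fold with SD were nearly equal, and only the former passed the threshold. Gabra5 (23.4, 26.8, 16.8 and 13.8 RPKM) and Gabrg3 (1.16, 2.08, 1.10 and 1.01 RPKM) were lower at 1.5-fold with SD only.

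Some other subunit genes were higher in G93A. Gabra2 had 30.8, 20.3, 52.3 and 41.1 RPKM and was higher at 1.5-fold in both genotype comparisons, although its WT libraries also differed from each other by a log2 fold change of -0.60. Gabrg1 had 11.2, 11.1, 15.5 and 23.5 RPKM and Gabrb1 had 8.45, 8.51, 10.2 and 12.8 RPKM, and both passed 1.5-fold with SD only. Gabra3, with 41.1, 43.4, 33.8 and 32.3 RPKM, was lower in both G93A libraries but did not reach 1.5-fold. That SD and vehicle gave different calls for a subunit was not tested.

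For the metabotropic GABA-B receptor, whose subunits work as a pair, Gabbr2 had 19.3, 20.6, 11.5 and 11.0 RPKM and was lower at 1.5-fold in both genotype comparisons. Gabbr1 had 99.9, 92.8, 92.996 and 81.0 RPKM and was not, and its WT + SD library lay just below G93A vehicle. Among the 6 genes for GABA uptake and breakdown, 1 was lower in each comparison, and 2 with a mean below 1 RPKM were higher with vehicle. Of all names, 10.3% were lower with vehicle and 12.5% with SD, and 20.3% were higher with vehicle. With a pseudocount of 1 RPKM only the lower gene was called with vehicle. The lower gene was Slc6a11, which encodes the astrocytic transporter GAT3 and had 106, 104, 58.7 and 49.1 RPKM. Abat, for the enzyme that degrades GABA, had 131, 136, 120 and 123 RPKM.

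Among the genes for glycine synthesis and cleavage, those that passed the threshold between genotypes were higher in G93A. Of 6 genes, 3 were higher at 1.5-fold in G93A vehicle and 4 in G93A + SD, against 20.3% and 23.2% of all names, with medians of 0.55 and 0.69. With a pseudocount of 1 RPKM the counts were 1 and 2, and under median-ratio scaling they were 2 and 3. Gldc, for the decarboxylase of the glycine cleavage system, had 0.880, 0.806, 1.71 and 1.99 RPKM, and Shmt1, for a cytosolic enzyme that interconverts serine and glycine, had 1.01, 0.953, 1.72 and 1.68 RPKM. Shmt2, its mitochondrial counterpart, had 6.43, 5.84, 8.94 and 8.995 RPKM and passed 1.5-fold with SD only. Gcsh had 24.9, 15.0, 38.9 and 29.3 RPKM and passed in both comparisons, but its WT libraries differed by a log2 fold change of -0.73. Under scaling Gcsh did not pass with vehicle, and Shmt2 did not pass with SD. The cleavage system's other genes did not pass, with 9.55, 10.05, 12.4 and 13.5 RPKM for Amt and 65.0, 69.2, 63.3 and 61.9 RPKM for Dld, which also serves other enzyme complexes.

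The chloride gradient on which both transmitters depend is set by cotransporters. Slc12a5, for the neuronal chloride exporter KCC2, had 80.9, 78.9, 54.0 and 45.5 RPKM and passed 1.5-fold downward with SD only, since its fall of 1.498-fold with vehicle was just short of the threshold. Under median-ratio scaling it passed with vehicle too. Slc12a2, for the importer NKCC1, had 55.1, 59.0, 45.0 and 48.5 RPKM and did not pass. The ratio of Slc12a5 to Slc12a2 was 1.47, 1.34, 1.20 and 0.937. Of 5 further genes of the inhibitory postsynapse, all lay below both WT libraries in both G93A libraries, an order that 28% of all names showed. At 1.5-fold 0 passed with vehicle and 2 with SD, against 10.3% and 12.5% of all names. The genes that passed with SD were Iqsec3 (36.7, 36.5, 25.3 and 24.0 RPKM) and Slitrk3 (9.60, 10.3, 6.68 and 6.32 RPKM). Under median-ratio scaling 2 passed with vehicle, and with a pseudocount of 1 RPKM 1 passed with SD. Shares of all names were not taken at those settings. Nlgn2, for an adhesion protein of inhibitory synapses, had 31.4, 29.4, 29.0 and 25.3 RPKM.

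Transcription factors that specify inhibitory interneurons were at low levels in the adult cord. Of 8 such genes, 3 were lower at 1.5-fold with vehicle, and 4 were lower and 1 higher with SD, but only 3 of the 8 had a mean of at least 1 RPKM. Of all names, 10.3% were lower with vehicle, and 12.5% were lower and 23.2% higher with SD. With a pseudocount of 1 RPKM the called genes numbered 1 with vehicle and 0 with SD. Pax2 had 5.72, 5.19, 3.21 and 3.55 RPKM and was lower at 1.5-fold with vehicle, Lhx1 had 1.17, 1.42, 0.886 and 0.835 RPKM and was lower with SD, and Lhx5 had 1.55, 1.53, 1.26 and 1.19 RPKM. The genes of glutamatergic neurons, which excite rather than inhibit, were looked at beside them. Of 6 such genes, 1 was lower with vehicle and 2 with SD, against 10.3% and 12.5% of all names. With a pseudocount of 1 RPKM, 1 was called with SD. Slc17a6, for the vesicular glutamate transporter VGLUT2, had 58.7, 60.1, 36.5 and 32.2 RPKM and was lower at 1.5-fold in both comparisons, whereas Lmx1b, for a transcription factor, had 2.28, 1.64, 1.85 and 2.08 RPKM. The ratio of Slc32a1 to Slc17a6 was 0.787, 0.711, 0.870 and 0.753, so that its genotypes overlapped.

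**Figure D4:**
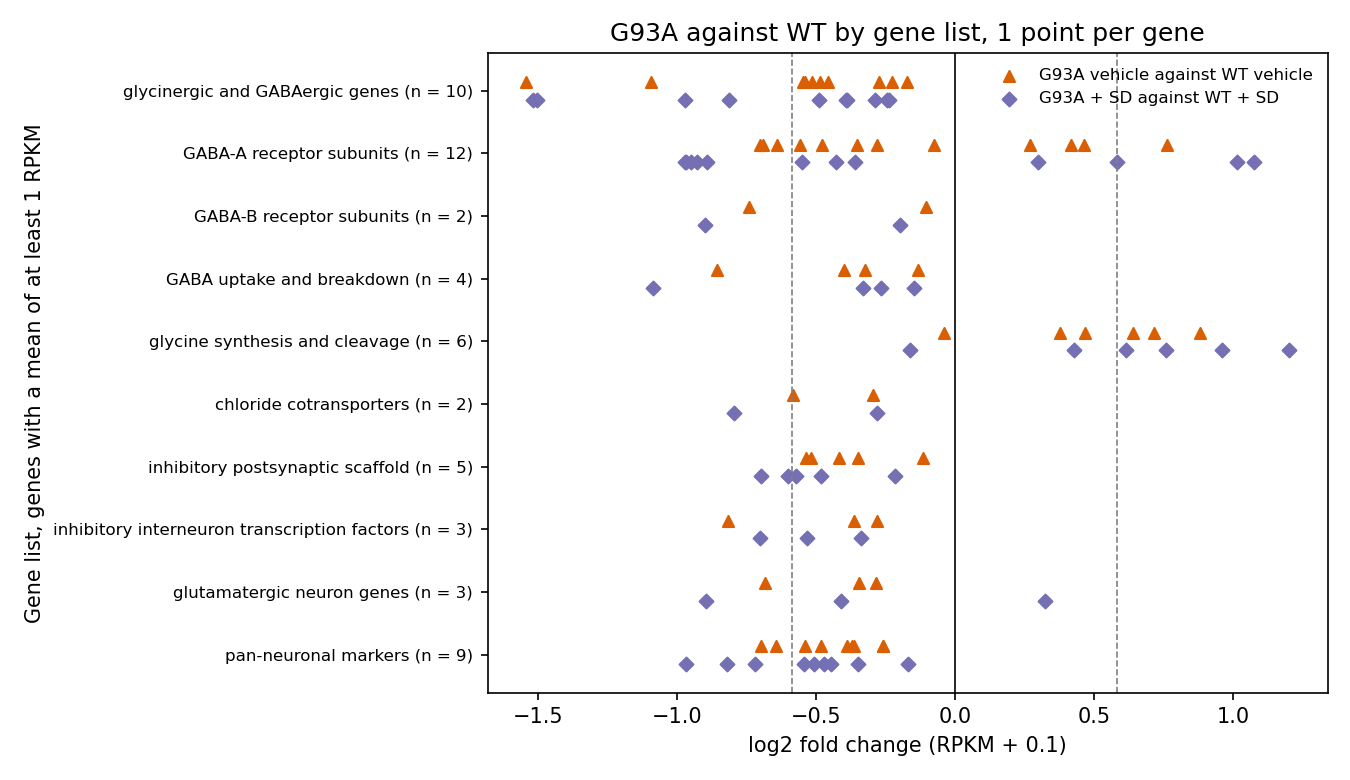
Log2 fold change (horizontal axis, RPKM + 0.1) of G93A against WT for each gene with a mean of at least 1 RPKM, by gene list on the vertical axis, with 1 point per gene for vehicle and 1 for SD and dashed lines at 1.5-fold. Points of the glycinergic and GABAergic genes all lie below 0, with Glra1 and Slc6a5 past -1, those of the pan-neuronal markers reach -0.70 and -0.97, and those of glycine synthesis and cleavage lie mostly above 0.

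Markers of cell types moved with genotype. Of 9 pan-neuronal markers with a row, all were lower in both G93A libraries than in both WT libraries, as were 28% of all names and 32.6% of those with a mean of at least 1 RPKM, with summed levels of 2496, 2487, 1699 and 1490 RPKM, medians of -0.39 and -0.51, and lowest values of -0.70 and -0.97. Glra1 and Slc6a5 thus fell by more than every one of these 9 markers in both comparisons, while the medians of the 10 genes were near those of the markers. Of 7 motor neuron markers, 3 were lower at 1.5-fold with vehicle and 4 with SD, against 10.3% and 12.5% of all names, with summed levels of 96.4, 90.1, 76.3 and 60.2 RPKM. With a pseudocount of 1 RPKM these counts were 0 and 3. Of 8 astrocyte markers, 5 were higher at 1.5-fold in both comparisons, and of 8 microglia markers 7 were, against 20.3% of all names with vehicle and 23.2% with SD, with sums of 1403, 1340, 3722 and 4461 RPKM for astrocytes and of 102, 89.6, 655 and 634 RPKM for microglia. Oligodendrocyte markers summed to 8814, 9067, 7172 and 6573 RPKM. The summed level of the 10 genes was 455, 473, 301 and 273 RPKM. The part of these shifts in the lower levels of glycinergic and GABAergic genes was not tested.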

How the data were processed

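RNA-seq data from 4 libraries of lumbar spinal cord were analysed, grouped by the sample labels. The deposited values were taken as RPKM, since value times transcript length gave almost equal sums over the libraries; no source used here names the unit. The design allowed for counts too, and these values were treated as normalized. The authors describe 53 bp reads aligned with STAR to GRCm38 (mm10), with HTSeq counts over Ensembl genes, but the table lists RefSeq transcripts (23750 rows). Rows of 1 name were averaged. A gene counted as changed at 1.5-fold, without pseudocount. Shares of all names at 1.5-fold used this rule on unscaled values. Genes named are the 10 members, the 3 highest of each other list with its changed genes (mean of at least 1 RPKM), and the 3 nearest profiles; some genes that this rule names are not reported here. Members and lists were chosen with earlier results of these data known, and the minimum of 5 RPKM for ranks of fall after seeing the data. Older symbols were matched through RefSeq. Positions and overlaps came from GENCODE M21. Of 10 pan-neuronal markers, 9 were matched to a row. The authors' 3 ratio columns between libraries were not used. Versions were numpy 2.4.6 and pandas 2.3.3 under Python 3.11.15, with plots from matplotlib 3.10.9, and the code was tested on simulated data. Alternatives were pseudocounts, median-ratio scaling, a 2-fold threshold, the row with the highest mean and a minimum mean.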

Additional observations from a re-analysis of the deposited data

Results flagged for a closer look

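SD and vehicle differed in opposite directions in the genotypes for 5 of the 10 genes, as they did for 44.6% of all names and 45.8% of names with a mean of at least 1 RPKM, and with 1 library per condition the difference between genotypes was not tested. The SD effect in G93A minus that in WT, on the log2 scale, was -0.43 for Slc6a5 (0.13 in WT and -0.29 in G93A) and -0.42 for Glrb (0.14 and -0.28). It was -0.16 for Gphn (0.03 and -0.13), -0.073 for Glra3, whose values of 0.07 and -0.00 are both near 0, and 0.23 for Glra2 (-0.15 and 0.08), the gene with the fewest fragments.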

How the results depend on the processing

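Scaling by median ratios, which shifts log2 values by -0.06 in G93A vehicle against WT vehicle, gave 5 changed members there in place of 2, adding Slc32a1 (-0.60), Glrb (-0.61) and Glra2. A threshold of 2-fold left 2 changed members, Slc6a5 and Glra1, in G93A + SD against WT + SD in place of 4. Shares of all names were not taken under scaling or at 2-fold. The other alternatives for counts and medians of the 10 genes kept their direction and size, and no value reversed among the called results. Without a call, Gad1 in WT + SD against WT vehicle changed sign under scaling. For other gene lists, 27 values moved with a pseudocount of 1 RPKM and 3 with scaling. Leaving out a library removes a condition. No analysis paired by replicate was possible because each condition has 1 library, so that the groups share 1 replicate number. An additive fit of genotype and treatment, which pairs the genotypes within a treatment, was not made. If strand was not used in counting, overlaps limit Slc6a9, Slc32a1, Gphn and Glra1, and the few fragments behind Glra2 limit its shares. Windows shared with genes elsewhere limit Gad1 and Gad2.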

Other observations

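Glra4, a further alpha subunit gene that is not among the 10 genes and was chosen after its values were seen, had 0.536, 0.558, 0.369 and 0.723 RPKM, with G93A vehicle lowest and G93A + SD highest.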
